A study of Homo sapiens with 12 samples.

Results

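The genes described here encode 10 secreted matricellular and glycoprotein components of the extracellular matrix, namely the thrombospondins THBS1, THBS2 and THBS3, fibronectin (FN1), tenascin C (TNC), SPARC, osteopontin (SPP1), versican (VCAN), the fasciclin-domain protein TGFBI and fibrillin 1 (FBN1). They were chosen by symbol, and all 10 are present among the 23064 gene symbols of the count tables. The RNAseq data came from CAL-29 and 5637, established human bladder carcinoma cell lines, both without an engineered allele (genotype WT in the labels). Cells of each line were treated with a control siRNA (siCtrl) or with an siRNA against KMT9α (siKMT9α), a histone H4 methyltransferase subunit encoded by N6AMT1, and RNA was taken on day 3. There were 3 libraries for each siRNA in each line, 12 in all. RNA was sequenced for 1 siRNA against KMT9α. The transfection reagent, siRNA dose and culture medium differed between the lines, so that reagent, dose and medium cannot be told apart from the cell line. The labels do not say whether replicates came from separate cultures, and p-values then measure only the spread between these libraries.

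Matricellular proteins are secreted into the matrix but act mainly as regulators of adhesion and signalling rather than as load-bearing fibres. Thrombospondins, tenascin C, SPARC and osteopontin belong to this class, whereas fibronectin and fibrillin 1 assemble into fibrils and microfibrils. Integrins, CD44 and CD47 are among the cell-surface receptors through which cells sense these proteins, and in carcinomas both tumour cells and stromal fibroblasts can make them.

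Total counts per library lay between 24479348.5 and 35151256.5. N6AMT1, the targeted gene, fell from 10.4 to 2.57 CPM (a gene's counts relative to the TMM-scaled library total) in CAL-29 cells and from 13.3 to 2.85 CPM in 5637 cells, log2 fold changes of -2.0 and -2.23 with Benjamini-Hochberg adjusted p of 1.33e-10 and 1.05e-15 in the quasi-likelihood test of edgeR. Of 16 urothelial and epithelial markers, 13 were above 1 CPM in each line. Of 10 fibroblast and smooth muscle markers, 5 were above 1 CPM in each line, and DCN, encoding decorin, was at or below 0.0156 CPM in every group. DES, encoding the muscle protein desmin, had 0 counts in CAL-29 cells. The 4 endothelial markers summed to at most 13.8 CPM in any library. The summed CPM of these 10 fibroblast markers went from between 147.9 and 166.4 in siCtrl libraries to between 67 and 77.1 in siKMT9α libraries of CAL-29 cells, and from between 50.8 and 54.1 to between 20.5 and 24.1 in 5637 cells. Most of this sum was FAP in CAL-29 cells (124.3 and 51.7 CPM) and COL1A2 in 5637 cells (38.6 and 13.4 CPM), whereas MYH11 had higher values with siKMT9α in each line (2.91 and 3.91 CPM, and 3.63 and 4.82 CPM). The 4 immune markers summed to between 4.71 and 6.18 CPM with siCtrl and between 9.82 and 12 CPM with siKMT9α in CAL-29 cells, and to between 2.53 and 3.07 CPM and between 4.41 and 4.48 CPM in 5637 cells, nearly all of it CD68. The summed epithelial markers also had lower values with siKMT9α, from between 15326.5 and 16208.3 to between 6856.2 and 7021.2 CPM in CAL-29 cells and from between 10439.7 and 10923.0 to between 6629.8 and 6848.1 CPM in 5637 cells. The largest of them was KRT8 in CAL-29 cells (4738.2 and 1734.9 CPM) and KRT7 in 5637 cells (3544.8 and 1824.4 CPM). KRT7 (77.4 and 94.2 CPM) and PPARG (24.2 and 28.1 CPM) had higher values with siKMT9α in CAL-29 cells. So did TP63 in 5637 cells (124.9 and 160.6 CPM), whereas all other listed epithelial markers had lower values. In bulk RNA, fewer cells of a type and less RNA per cell cannot be told apart, and the part of cell composition in the results below was not tested.

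Most of the called matrix genes were lower with siKMT9α in both lines, with the exceptions SPP1 in CAL-29 cells and TNC in 5637 cells. A gene was called at an unadjusted p below 1e-06 in edgeR's quasi-likelihood test, the threshold of the study's methods. In CAL-29 cells, 9 of the 10 genes were tested, of which 5 fell (THBS1, THBS3, TNC, FN1 and FBN1), 1 rose (SPP1) and 3 were not called (THBS2, SPARC and TGFBI). Over all 14673 genes tested in that line, 15% were called lower and 15% higher. In 5637 cells, 9 were tested, of which 3 fell (THBS1, FN1 and FBN1), 1 rose (TNC) and 5 were not called, where 17.6% of 14335 genes were called lower and 18% higher. The median log2 fold change of the tested members was -1.13 for CAL-29 and -0.26 for 5637, beside -0.02 and -0.01 over all genes tested. At an adjusted p below 0.05, 6 members were lower and 2 higher in CAL-29 cells, and 7 were lower and 1 higher in 5637 cells. That criterion called 35.2% of all genes lower and 34.3% higher for CAL-29, and 35.6% lower and 35.1% higher for 5637. The siCtrl and siKMT9α libraries of 8 of the 9 tested members did not overlap in each line, against 72.4% of all genes for CAL-29 and 72.4% for 5637.

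**Figure D1:**
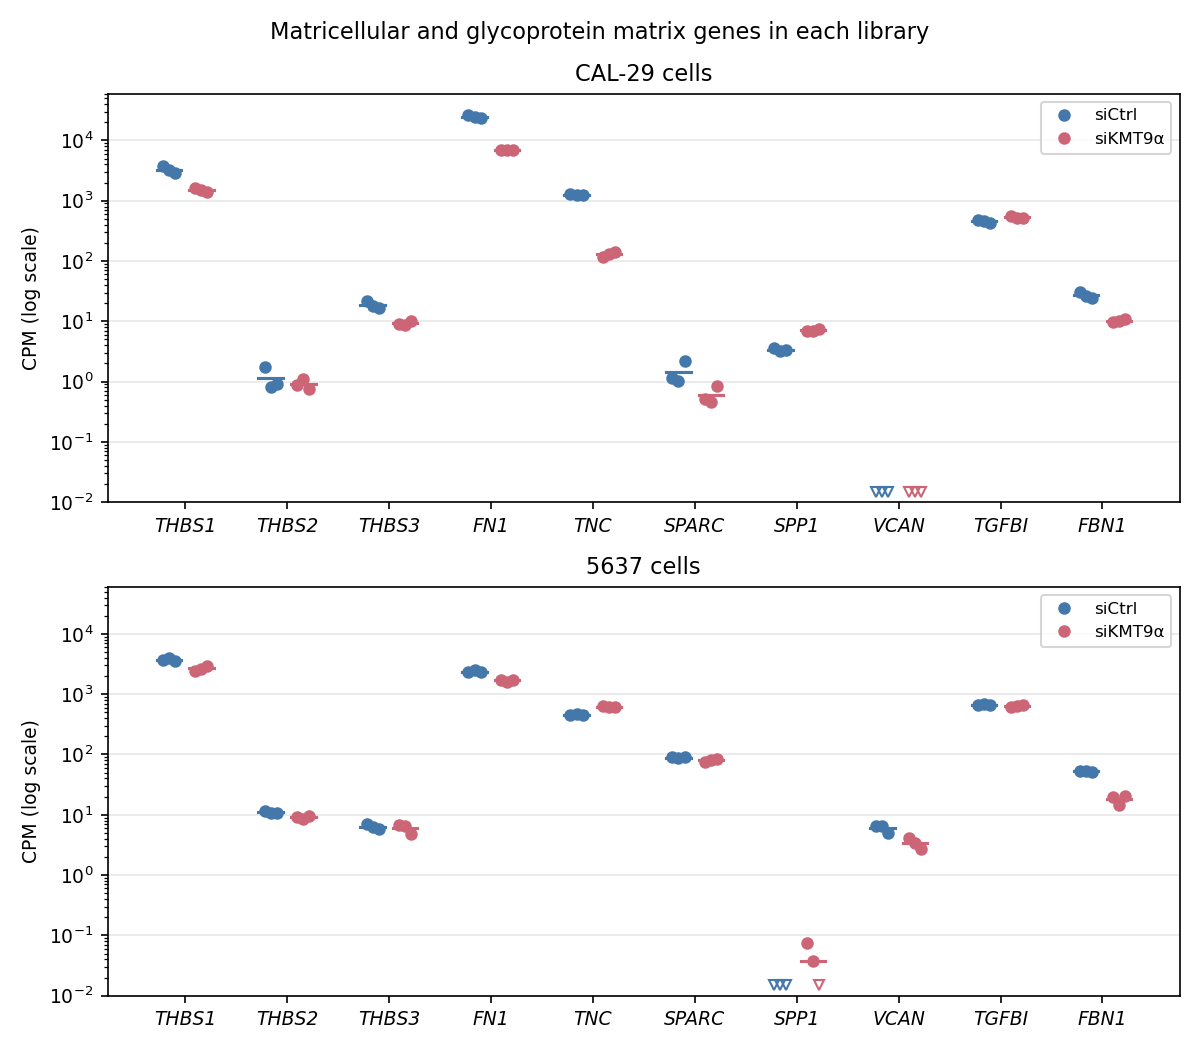
Level of each matrix gene in the 12 libraries, in CPM on a log scale, with siCtrl in blue and siKMT9α in red; points are libraries, horizontal bars are group means of 3 libraries, and open triangles mark libraries with 0 counts. TNC in CAL-29 cells shows the widest gap, from 1262.3 to 129.7 CPM, and VCAN has no count in any CAL-29 library.

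THBS1, THBS2 and THBS3 encode secreted glycoproteins, of which thrombospondins 1 and 2 form trimers that inhibit angiogenesis and bind CD47 and CD36, while thrombospondin 3 forms pentamers. THBS1 (NM_003246, chr15:39873280-39891667 on the plus strand of GRCh37, which hg19 denotes, 22 exons) was at 3821.9, 3202 and 2853.6 CPM in the siCtrl libraries of CAL-29 cells and at 1612.5, 1477.3 and 1409.9 CPM in the siKMT9α libraries. In 5637 cells it was at 3693.9, 3993.6 and 3550.7 CPM with siCtrl, against 2430.4, 2644.3 and 2937.7 CPM after knockdown. The groups did not overlap in either line, and the siCtrl libraries were higher in both. THBS1 fell by 1.13 on the log2 scale (SE 0.08, adjusted p = 5.45e-11, edgeR) in CAL-29 cells and by 0.49 (SE 0.04, adjusted p = 9.8e-11, edgeR) in 5637 cells. THBS3 (chr1:155165379-155178842, minus strand) went from 21.9, 18 and 16.7 CPM to 9.04, 8.58 and 10.2 CPM in CAL-29 cells, and fell by 1.03 on the log2 scale (SE 0.11, adjusted p = 3.05e-08, edgeR). In 5637 cells THBS3 was at 7.01, 6.2 and 5.72 CPM with siCtrl and at 6.8, 6.59 and 4.89 CPM with siKMT9α, overlapping groups with a log2 difference of -0.05 (SE 0.12, adjusted p = 0.704, edgeR). THBS3 shared 27.4% of its exonic bases with the antisense gene THBS3-AS1 and THBS2 39.4% with THBS2-AS1. The counting used default settings, whose strand option was not determined here, and reads of these pairs may not have been told apart. THBS2 (chr6:169615875-169654145, minus strand) was near 1 CPM in CAL-29 cells, between 0.821 and 1.77 CPM with siCtrl and between 0.756 and 1.1 CPM with siKMT9α, and was not called (log2 difference -0.33, SE 0.33, adjusted p = 0.383, edgeR). It was also not called in 5637 cells, at 11.4, 10.6 and 10.9 CPM against 9.33, 8.62 and 9.5 CPM (log2 difference -0.26, SE 0.09, adjusted p = 0.00917, edgeR), although these libraries did not overlap. In CAL-29 cells the sign of THBS2 rested on siCtrl replicate 1, without which its log2 difference was 0.11. In 5637 cells that of THBS3 was 0.03 without siCtrl replicate 1 and 0.09 without siKMT9α replicate 3.

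Fibronectin, the product of FN1, is a dimeric glycoprotein assembled by integrins into a pericellular fibril network on which other matrix proteins are deposited. FN1 (NM_212482, chr2:216225163-216300796 on the minus strand, 46 exons) was at 26653.7, 24558.1 and 23233.6 CPM in siCtrl libraries of CAL-29 cells and at 6953.8, 7067.7 and 6945.7 CPM in siKMT9α libraries. It fell to 28.2% of the siCtrl mean, a log2 fold change of -1.83 (SE 0.06, adjusted p = 4.82e-16, edgeR). In 5637 cells, where FN1 started at 2337.7, 2492.5 and 2306.1 CPM, it was at 1732.9, 1614.5 and 1717.5 CPM with siKMT9α. This was a fall to 71% of siCtrl, or 0.49 on the log2 scale (SE 0.03, adjusted p = 8.98e-14, edgeR). The siCtrl and siKMT9α libraries were separate in each line. The 6 RefSeq transcripts of FN1 in the tables, which share reads, had log2 differences from -1.85 to -1.74 in CAL-29 cells and from -0.56 to -0.49 in 5637 cells. NM_054034, the one with the fewest counts, gave the -1.74 and the -0.56.

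TNC encodes tenascin C, a hexameric anti-adhesive glycoprotein that is sparse in most adult tissue and induced at wound edges and in tumour stroma. TNC (NM_002160, chr9:117781854-117880486, minus strand, 28 exons) was at 1306.6, 1245.6 and 1234.6 CPM in siCtrl libraries of CAL-29 cells and at 117.7, 133.1 and 138.4 CPM in siKMT9α libraries. Every siKMT9α library was far below every siCtrl library. TNC fell 9.73-fold, to 10.3% of the siCtrl mean (log2 fold change -3.28, SE 0.06, adjusted p = 1.03e-19, edgeR), and ranked 68 from the lowest log2 fold change among the 14673 genes tested. In 5637 cells TNC was at 455.8, 469.6 and 455.4 CPM with siCtrl and at 638.6, 606.6 and 614.7 CPM with siKMT9α. Here every siKMT9α library was above every siCtrl library, and TNC rose 1.35-fold (log2 fold change 0.43, SE 0.03, adjusted p = 4.45e-13, edgeR). TNC was the member with opposite calls in the lines, while THBS1, FN1 and FBN1 were called lower in both.

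The promoters of these 4 genes are shown, since 3 of them moved down in both lines and TNC moved in opposite directions. They span 250 bases before to 50 after the annotated start, from RefSeq on GRCh38.p14 (another build than that of the gene positions given elsewhere in the text), and are written 5′ to 3′ along each gene's own strand, chr15:39580829-39581128 on the plus strand for THBS1 and, on the minus strand, chr2:215436019-215436318 for FN1, chr15:48644921-48645220 for FBN1 and chr9:115118108-115118407 for TNC. Capitals mark matches, on either strand, to 4 short motifs, which were TGANTCA for AP-1, the letters GGAATG for TEAD factors, the letters CAGAC for SMAD proteins and the TATA box with the letters TATAAA.
THBS1: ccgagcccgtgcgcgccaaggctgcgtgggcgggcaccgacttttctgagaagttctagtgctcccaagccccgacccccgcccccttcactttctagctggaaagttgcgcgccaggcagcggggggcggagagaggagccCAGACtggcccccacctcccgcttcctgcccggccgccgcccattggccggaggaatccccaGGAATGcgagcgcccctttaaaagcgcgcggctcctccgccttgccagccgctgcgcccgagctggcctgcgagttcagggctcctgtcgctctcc
FN1: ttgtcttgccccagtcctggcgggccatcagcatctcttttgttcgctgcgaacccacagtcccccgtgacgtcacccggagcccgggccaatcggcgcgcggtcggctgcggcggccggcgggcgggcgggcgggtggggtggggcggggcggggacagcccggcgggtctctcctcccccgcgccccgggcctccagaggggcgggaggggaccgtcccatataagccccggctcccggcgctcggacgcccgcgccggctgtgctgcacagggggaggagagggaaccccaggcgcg
FBN1: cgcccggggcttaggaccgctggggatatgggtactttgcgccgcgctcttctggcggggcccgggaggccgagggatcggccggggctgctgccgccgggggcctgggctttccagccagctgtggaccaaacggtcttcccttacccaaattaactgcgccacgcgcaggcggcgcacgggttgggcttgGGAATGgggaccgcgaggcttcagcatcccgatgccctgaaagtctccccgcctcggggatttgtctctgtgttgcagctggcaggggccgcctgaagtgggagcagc
TNC: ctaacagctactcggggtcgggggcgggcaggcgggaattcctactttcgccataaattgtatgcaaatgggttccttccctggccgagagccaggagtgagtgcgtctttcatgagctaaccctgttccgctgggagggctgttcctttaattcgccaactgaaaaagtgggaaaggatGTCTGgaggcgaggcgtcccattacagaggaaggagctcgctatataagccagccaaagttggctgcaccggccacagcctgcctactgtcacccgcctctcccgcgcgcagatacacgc
THBS1 holds GGAATG 46 bases before the start and CAGAC 108 bases before it. FBN1 holds GGAATG 58 bases before the start, TNC holds CAGAC on its other strand 70 bases before it, and FN1 holds none of the 4 letter strings. The TATA box was searched only as TATAAA. Close variants, such as tatataag in the TNC window and atataag in the FN1 window, are therefore not marked. Over all 10 members, GGAATG was found in 4 (THBS1, THBS2, SPARC and FBN1), CAGAC in 5, TATAAA in 1 (THBS2) and TGANTCA in 0. The same letters occur in 14%, 45.3%, 11.5% and 7.71% of the 35116 promoter windows of that length, respectively. A match describes the letters of the window and is not a binding site.

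SPARC, also called osteonectin, is a collagen- and calcium-binding matricellular protein. SPARC (NM_003118, chr5:151040657-151066536, minus strand) had few counts in CAL-29 cells, at 1.16, 1.02 and 2.19 CPM with siCtrl and 0.519, 0.457 and 0.835 CPM with siKMT9α. Its libraries were separate but it was not called (log2 difference -1.30, SE 0.35, adjusted p = 0.00278, edgeR). In 5637 cells, where it stood at 89.5, 86.4 and 89.9 CPM with siCtrl and 73.9, 82.6 and 84.5 CPM with siKMT9α, it was likewise not called (log2 difference -0.14, SE 0.04, adjusted p = 0.00528, edgeR). SPP1 encodes osteopontin, a phosphorylated ligand of integrins and CD44. SPP1 (chr4:88896819-88904684, plus strand) was at 3.55, 3.17 and 3.33 CPM with siCtrl and 6.93, 6.8 and 7.46 CPM with siKMT9α in CAL-29 cells. It rose 2.11-fold (log2 fold change 1.08, SE 0.14, adjusted p = 5.48e-07, edgeR), with separate groups at a mean of 146.7 counts per library. The call rests on a narrow margin, since without siCtrl replicate 2 or any 1 of the siKMT9α libraries its log2 fold change was between 1.04 and 1.11 and its edgeR p between 1.02e-06 and 3.41e-06. In 5637 cells SPP1 had 0 counts in each siCtrl library and 2, 1 and 0 counts with siKMT9α, all below the 3 counts per library that a count of 0 allows, and was not tested.

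Versican, the product of VCAN, is a large hyaluronan-binding chondroitin sulfate proteoglycan of provisional matrix. VCAN (NM_004385, chr5:82767437-82878122, plus strand, 15 exons) had 0 counts in all 6 CAL-29 libraries, which allows up to 0.122 CPM in a siCtrl library. In 5637 cells it was at 6.42, 6.47 and 4.98 CPM with siCtrl and 4.08, 3.36 and 2.69 CPM with siKMT9α. The groups did not overlap, but the p of 3.64e-06 missed the threshold (log2 difference -0.83, SE 0.14, adjusted p = 9.42e-06, edgeR). Without siCtrl replicate 3 or without siKMT9α replicate 1 it passed, with log2 fold changes of -0.95 and -0.98. Versican isoforms differ in 2 large exons that carry the glycosaminoglycan attachment regions, exon 7 (chr5:82815168-82818128, 2961 bases) and exon 8 (chr5:82832826-82838087, 5262 bases). The V1 transcript (NM_001164097), with exon 8, exceeded the V3 transcript (NM_001126336), which has neither exon, by 112.5, 102 and 113.5 counts in the siCtrl libraries and by 47.5, 44.5 and 48 counts in the siKMT9α libraries. The V2 transcript (NM_001164098), with exon 7, exceeded V3 by 12, 11 and 5 counts and by 2, 2 and 2 counts. Most versican reads that told these transcripts apart therefore lay in exon 8 in both conditions, and both differences were lower with siKMT9α in every library.

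TGFBI encodes a secreted fasciclin-domain adhesion protein first found as a TGF-β-induced transcript. TGFBI (NM_000358, chr5:135364677-135399507, plus strand, 17 exons) was at 470.4, 457.8 and 433.1 CPM with siCtrl and 549.1, 522 and 514.7 CPM with siKMT9α in CAL-29 cells. The 5637 libraries held 667.5, 680.6 and 674.2 CPM with siCtrl, against 618.1, 642.7 and 663.8 CPM with siKMT9α. The siKMT9α libraries were all above siCtrl in CAL-29 cells and all below it in 5637 cells, by small margins, and neither difference was called (log2 0.22, SE 0.05, adjusted p = 4.97e-04, and log2 -0.07, SE 0.03, adjusted p = 0.0422, edgeR). Without siCtrl replicate 1 the value in CAL-29 cells passed, at 0.25. FBN1 encodes fibrillin 1, the backbone of the microfibrils that bind latent TGF-β complexes and carry elastin. FBN1 (NM_000138, chr15:48700510-48937918, minus strand, 66 exons) went from 30.5, 25.9 and 24.6 CPM to 9.82, 10 and 10.8 CPM in CAL-29 cells and from 53.8, 53.7 and 50.7 CPM to 19.6, 14.8 and 20.4 CPM in 5637 cells. The siKMT9α libraries were well below all siCtrl libraries of the same line. The log2 fold changes of FBN1 were -1.41 (SE 0.09, adjusted p = 2.1e-11, edgeR) and -1.53 (SE 0.07, adjusted p = 1.73e-17, edgeR), respectively, and it had the largest fall of the members tested in 5637 cells.

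**Figure D2:**
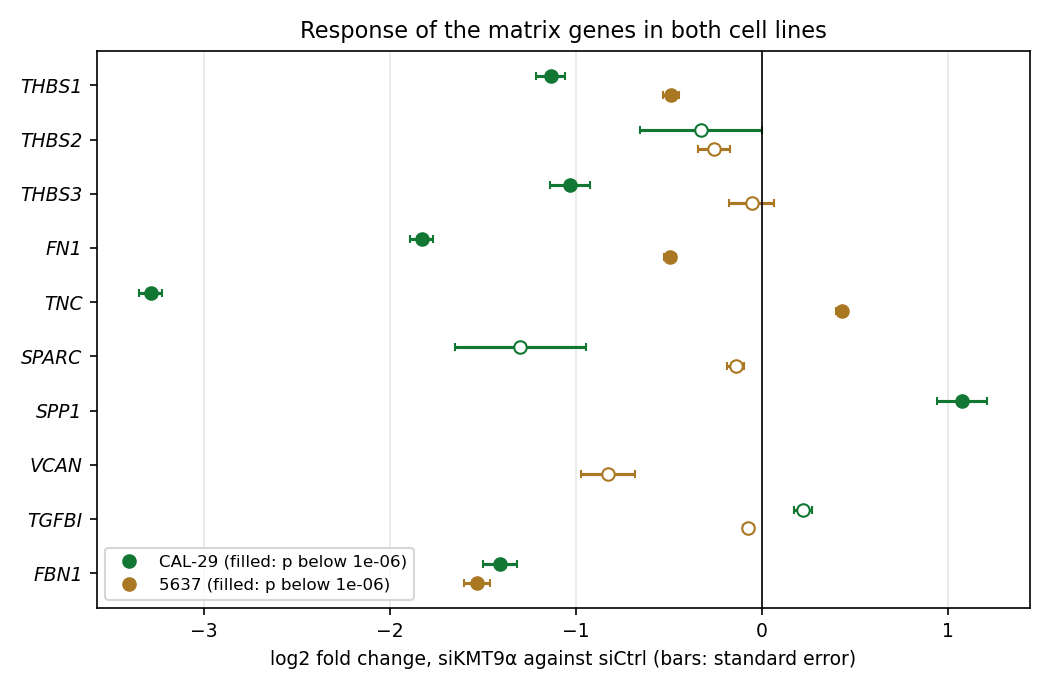
Log2 fold change of each matrix gene with siKMT9α against siCtrl in CAL-29 (green) and 5637 (brown) cells, with bars for the standard error; filled circles passed p below 1e-06, and SPP1 in 5637 and VCAN in CAL-29 cells were not tested. TNC lies at -3.28 in CAL-29 and at 0.43 in 5637 cells, while FBN1 lies at -1.41 and -1.53.

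The response of 2 members differed between the lines in the interaction test over all 12 libraries, at p below 1e-06, where 15.7% of 15395 genes did. The log2 response in CAL-29 cells minus that in 5637 cells was -3.70 for TNC (SE 0.07, adjusted p = 1.93e-25, edgeR) and -1.32 for FN1 (SE 0.07, adjusted p = 4.63e-15, edgeR). For FBN1 the difference was 0.14 (SE 0.13, adjusted p = 0.382, edgeR) and for THBS2 -0.04 (SE 0.28, adjusted p = 0.919, edgeR). The sign of the THBS2 difference turned with scaling by total counts (0.074) and without CAL-29 siCtrl replicate 1 (0.39) or CAL-29 siKMT9α replicate 3 (0.0662). THBS1, THBS3, SPARC and TGFBI missed 1e-06 but had adjusted p-values (edgeR) of 9.77e-06, 3.64e-05, 0.00148 and 7.72e-05, with differences of -0.63, -0.96, -1.15 and 0.31. The call of THBS1 was sensitive to single libraries, passing without CAL-29 siCtrl replicate 1 (-0.51), without CAL-29 siCtrl replicate 3 (-0.72) or without 5637 siKMT9α replicate 1 (-0.69). That of TGFBI passed without CAL-29 siCtrl replicate 1 (0.34) and that of THBS3 without 5637 siKMT9α replicate 3 (-1.10), and the number of members called was 4 without CAL-29 siCtrl replicate 1. No difference could be read for SPP1 and VCAN, which were at or near 0 counts in 1 of the lines.

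The lines also differed in which matrix genes they expressed without knockdown. In the siCtrl libraries, 4 members were higher in CAL-29 cells and 5 were higher in 5637 cells, where 29% and 30.7% of 15395 genes were called in these directions. FN1 was 9.95-fold, THBS3 2.86-fold and TNC 2.62-fold higher in CAL-29 cells, with log2 differences of 3.32 (SE 0.06), 1.51 (SE 0.12) and 1.39 (SE 0.05). SPP1 was at least 33.2-fold higher in CAL-29 cells, against a floor of 3 counts per 5637 library. Conversely, SPARC was 63.7-fold higher in 5637 cells (log2 difference, CAL-29 minus 5637, -5.98, SE 0.11), THBS2 9.84-fold, FBN1 2.05-fold and TGFBI 1.56-fold. VCAN was at least 51.2-fold higher in 5637 cells by the same floor. THBS1 was not called, at -0.25 (SE 0.07, adjusted p = 0.00227, edgeR), but passed without CAL-29 siCtrl replicate 1, at -0.38.

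Per kilobase of the canonical GENCODE transcript, the order of the siCtrl levels in CAL-29 cells was FN1 (2957.7 CPM per kb), THBS1 (422.7), TGFBI (167.3), TNC (148.5), THBS3 (6), FBN1 (2.33), SPP1 (2.15), SPARC (0.422), THBS2 (0.205) and VCAN (0). The libraries of FBN1 and SPP1 overlapped, as did those of SPARC and THBS2, and these neighbours were not told apart. In 5637 cells the order was THBS1 (480.9 CPM per kb), FN1 (283.5), TGFBI (248.6), TNC (54.1), SPARC (25.7), FBN1 (4.54), THBS3 (2.01), THBS2 (1.92), VCAN (0.483) and SPP1 (0), with THBS3 and THBS2 overlapping. FN1, THBS1, TGFBI and TNC thus took the first 4 places in both lines, with FN1 above THBS1 in CAL-29 cells and below it in 5637 cells.

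In siCtrl libraries of CAL-29 cells the 10 genes took 2.90% ± 0.212 (SD, n = 3) of all counts, of which FN1 alone took 2.41% ± 0.156. With siKMT9α the shares were 0.943% ± 0.0137 and 0.718% ± 0.00557. In 5637 cells the 10 genes took 0.756% ± 0.0326 with siCtrl and 0.563% ± 0.0254 with siKMT9α, with THBS1 the largest part. The drop in the share of CAL-29 libraries was thus mostly that of FN1.

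**Figure D3:**
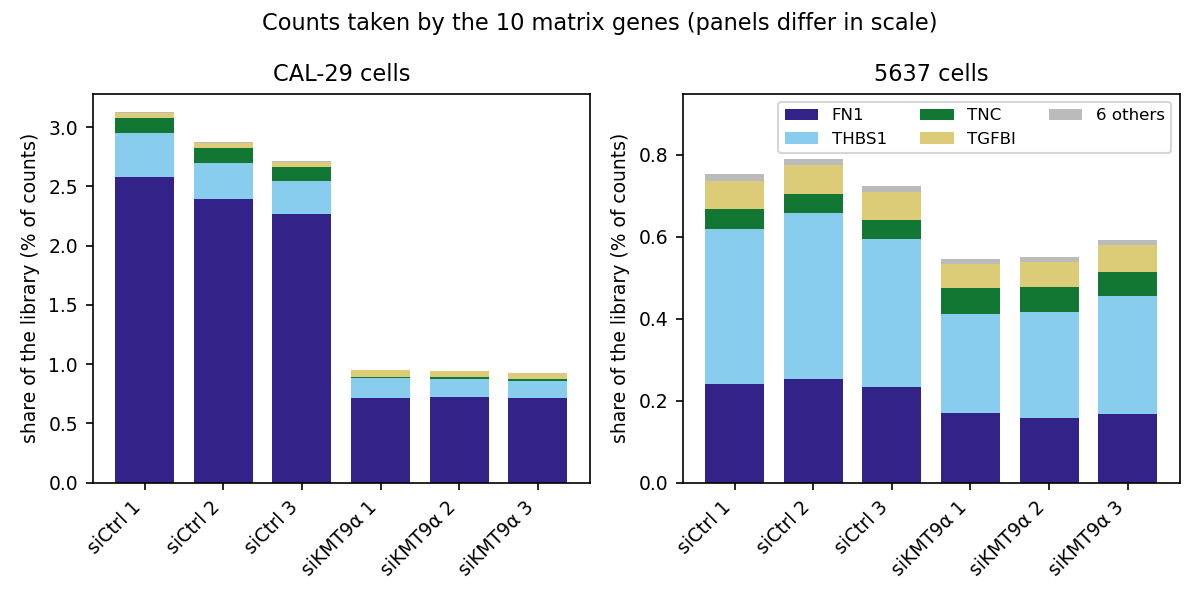
Percent of the counts of each library taken by FN1, THBS1, TNC, TGFBI and the other 6 matrix genes in CAL-29 (left) and 5637 (right) cells, with different vertical scales. In CAL-29 cells the stacked share averages 2.90% with siCtrl and 0.943% with siKMT9α, against 0.756% and 0.563% in 5637 cells.

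The 3′ UTRs of the members were searched for ACATTCA, the heptamer that pairs with bases 2 to 8 of the guide of the siRNA against KMT9α, as the study's methods give it. In the longest annotated 3′ UTR, 3 of the 10 members hold it, shown here as 30-base windows of GRCh37 with the heptamer in capitals, written along the strand of the gene. The THBS1 window is chr15:39889775-39889804 on the plus strand, those of SPARC are chr5:151041362-151041391 and chr5:151040814-151040843 on the minus strand, and that of TGFBI is chr5:135399150-135399179 on the plus strand.
THBS1: aagtcatagcaACATTCAcagtttgtatgt
SPARC, first window: taaattagttaACATTCAaaacgcagctcc
SPARC, second window: gtcattcggcgACATTCAtcaggtacctgc
TGFBI: gtcactgcctgACATTCActtccagagagg
TNC, FN1, FBN1, THBS2, THBS3, SPP1 and VCAN hold no copy, and TGFBI holds none in its shortest 3′ UTR. Among all tested genes with a 3′ UTR, 15.1% in CAL-29 cells and 15.4% in 5637 cells hold the heptamer. Of these, 30.4% and 38.9% were called lower, against 13.3% and 15.2% of the genes without it. The genes with and without it were not matched for 3′ UTR length, and no other heptamer was counted. Of the 3 members with the heptamer, THBS1 was called lower in both lines, whereas SPARC and TGFBI were called in neither. Of the genes called lower in both lines, FN1 and FBN1 hold no copy. Whether the heptamer has a part in the level of THBS1 was not tested.

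Related matrix, receptor and processing genes were taken from 7 lists with 81 genes, of which 57 were tested in each line. In CAL-29 cells 30 were called lower and 3 higher (median log2 fold change -0.71), and in 5637 cells 31 were lower and 9 higher (median -0.47), beside the 15% and 15% of all genes in CAL-29 cells and the 17.6% and 18% in 5637 cells. In the CCN family of matricellular proteins, 2 of 4 tested genes fell in CAL-29 cells and 3 of 4 in 5637 cells. CCN2, a heparin-binding protein also called CTGF, fell from 94.4 to 6.77 CPM in CAL-29 cells (log2 fold change -3.80, SE 0.08) and from 129.9 to 39.6 CPM in 5637 cells (-1.71, SE 0.08), and its response differed between the lines (-2.07, SE 0.14, adjusted p = 7.35e-13, edgeR). CCN1 also fell in both lines, from 894.9 to 298.3 CPM (-1.58, SE 0.06) and from 534.1 to 189 CPM (-1.50, SE 0.06), with a difference of -0.07 (SE 0.10, adjusted p = 0.595, edgeR) between the lines. CCN3 fell in 5637 cells, from 7.15 to 2.51 CPM.

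Of the other thrombospondins, tenascins and SPARC relatives, 3 of 7 fell in CAL-29 cells and none rose, and 2 of 5 fell and 1 rose in 5637 cells. The testican SPOCK1 fell from 181.8 to 76.2 CPM in CAL-29 cells (log2 fold change -1.25, SE 0.05), as did the follistatin-like protein FSTL1, from 429.6 to 280.2 CPM (-0.62, SE 0.05). In 5637 cells the SPARC relative SMOC1 rose from 7.72 to 18.3 CPM (1.24, SE 0.10), and SPOCK3 fell from 3.14 to 1.01 CPM. Of the other SIBLING, hyalectan and fasciclin genes, 2 of 3 fell in CAL-29 cells, and 1 of 3 rose and 0 fell in 5637 cells. HAPLN3, a link protein that ties hyalectans to hyaluronan, fell in CAL-29 cells (-0.88, SE 0.10) and rose in 5637 cells (0.65, SE 0.08), a difference of -1.51 (SE 0.13, adjusted p = 1.08e-10, edgeR). The proteoglycan gene BCAN fell in CAL-29 cells, from 7.07 to 2.48 CPM.

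Among the microfibril and elastic fibre genes, with which FBN1 is grouped, 7 of 13 fell and 1 rose in CAL-29 cells, and 12 of 15 fell and 2 rose in 5637 cells. EFEMP2 and FBLN5, fibulins required for elastic fibre assembly, fell in both lines, with log2 fold changes of -2.23 (SE 0.15) and -2.23 (SE 0.19) in CAL-29 cells and -2.13 (SE 0.17) and -2.46 (SE 0.26) in 5637 cells. FBLN2 fell in both lines, from 119.4 to 33.6 CPM in CAL-29 cells and from 3.59 to 1.04 CPM in 5637 cells, and elastin (ELN) fell from 11.8 to 3.09 CPM in 5637 cells. The fibulin EFEMP1 rose in CAL-29 cells, from 126.5 to 252.4 CPM (1.0, SE 0.06), and fell in 5637 cells, from 153.9 to 98.3 CPM (-0.65, SE 0.03), a difference of 1.66 (SE 0.07, adjusted p = 1.52e-17, edgeR). FBN2, the paralogue of FBN1, rose in 5637 cells, from 83.9 to 106.7 CPM (0.35, SE 0.04), in the line where FBN1 fell to 34.5% of siCtrl. EMILIN2 also rose there, from 9.74 to 15.8 CPM.

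Of the receptors of the members, 9 of 15 fell and 1 rose in CAL-29 cells, and 7 of 14 fell and 2 rose in 5637 cells. ITGB3, the β subunit of the αvβ3 integrin that binds fibronectin and osteopontin, fell from 33.2 to 1.57 CPM in CAL-29 cells (log2 fold change -4.38, SE 0.15). In 5637 cells it fell from 1.42 to 0.303 CPM (-2.20, SE 0.32), at a mean of only 28 counts per library. Its partner ITGAV fell from 1963.2 to 806.8 CPM in CAL-29 cells (-1.28, SE 0.06) and from 464 to 261.9 CPM in 5637 cells (-0.83, SE 0.04). ITGA4 also fell in CAL-29 cells, from 67.8 to 30.8 CPM. CD47, a thrombospondin receptor, rose in CAL-29 cells, from 216.1 to 314.3 CPM (0.54, SE 0.05), and fell in 5637 cells, from 145 to 99.3 CPM (-0.55, SE 0.04), with a difference of 1.10 (SE 0.06, adjusted p = 2.28e-15, edgeR). ITGA5, the α subunit of the main fibronectin receptor, fell in CAL-29 cells, from 139.7 to 65.6 CPM (-1.09, SE 0.07), and rose in 5637 cells, from 56.9 to 74.2 CPM (0.38, SE 0.04), a difference of -1.45 (SE 0.08, adjusted p = 1.34e-14, edgeR). ITGA3 rose (0.45, SE 0.03) and the syndecan SDC4 fell (-0.63, SE 0.03) in 5637 cells, and neither was called in CAL-29 cells.

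Of the enzymes that modify or cleave the members, 5 of 12 fell and 1 rose in CAL-29 cells, and 5 of 13 fell and 3 rose in 5637 cells. BMP1, a procollagen C-proteinase, fell in both lines, from 746.2 to 263.1 CPM in CAL-29 cells (log2 fold change -1.50, SE 0.05) and from 141.5 to 93.7 CPM in 5637 cells (-0.60, SE 0.04). The transglutaminase TGM2, which crosslinks fibronectin, fell from 1477.5 to 648.7 CPM in CAL-29 cells (-1.19, SE 0.05) and from 627.4 to 439.6 CPM in 5637 cells (-0.51, SE 0.03). FURIN, the proprotein convertase that cleaves profibrillin, fell in CAL-29 cells (-0.78, SE 0.05) and rose in 5637 cells (0.22, SE 0.03), a difference of -0.98 (SE 0.05, adjusted p = 7.15e-15, edgeR). XYLT2, a xylosyltransferase that starts glycosaminoglycan chains, rose in both lines (0.48, SE 0.06, and 0.89, SE 0.04). The versicanase gene ADAMTS9 rose in 5637 cells (0.32, SE 0.04), whereas the serine protease gene HTRA1 (-0.98, SE 0.05) and the kinase gene FAM20C (-0.68, SE 0.04) fell. FAM20C also fell in CAL-29 cells (-0.71, SE 0.06). Of the TGF-β ligands, which induce several of the members in other cells, TGFB2 fell from 783.5 to 364.3 CPM in CAL-29 cells (-1.10, SE 0.06) and from 180 to 76.5 CPM in 5637 cells (-1.24, SE 0.04). TGFB1 also fell, by 0.90 (SE 0.08) and by 0.29 (SE 0.04) on the log2 scale. Each of these genes had an edgeR p below 1e-06 where it is said to have risen or fallen.

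**Figure D4:**
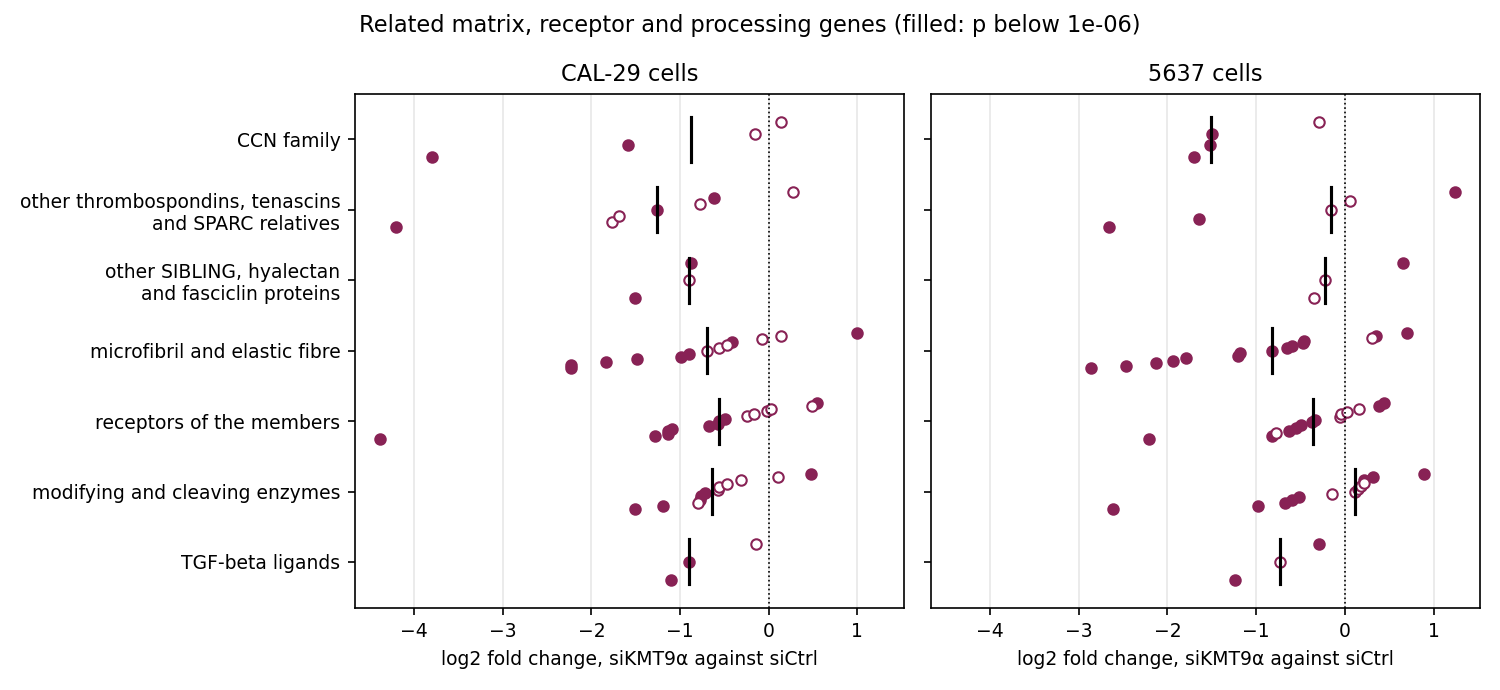
Log2 fold change of each tested gene of the 7 lists with siKMT9α against siCtrl in CAL-29 (left) and 5637 (right) cells; filled circles passed p below 1e-06 and black lines are list medians. The lowest points in CAL-29 cells are ITGB3 at -4.38, COMP at -4.21 (below the count minimum for naming) and CCN2 at -3.80, and the highest called point in 5637 cells is SMOC1 at 1.24.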

How the data were processed

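RNAseq was measured in 12 libraries, grouped by cell line and siRNA from the sample labels, with replicate numbers from the titles. The labels call the siRNA against KMT9α only siRNA and the tables si270. The paper's results identify it as siKMT9α#1. The authors aligned reads to hg19 with STAR and counted reads per RefSeq transcript using the default settings of HOMER. The deposited tables hold an estimated count per transcript (37400 transcripts), without normalization and in steps of a fraction of a read. The authors also deposited a p-value, an adjusted p-value and a log2 fold change for each transcript, which were not used.

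Of each symbol, the transcript with the highest summed count in the tested libraries was kept and its counts were rounded, so that THBS3 and SPP1 had different transcripts in the lines. So did VCAN, of which every transcript had 0 counts in CAL-29 cells. edgeR 4.0.16 (R 4.3.3, limma 3.58.1) was run with TMM scaling, filterByExpr and the quasi-likelihood test across all genes, per line and, for the interaction and the siCtrl comparison, over all libraries. Genes with p below 1e-06 were called, and p-values were adjusted by Benjamini-Hochberg. An exact permutation test of 3 against 3 libraries cannot go below 0.1. CPM values are means with the SD over 3 libraries. Same-group libraries differed beyond sampling noise (chi-square divided by its degrees of freedom from 2.24 to 12.2), and depth limits only the low-count genes. The highest values, 8.17 and 12.2, were those of CAL-29 siCtrl replicate 1 against replicates 2 and 3. All other pairs were at most at 3.96. On simulated counts, the changed genes were drawn from those with a mean of at least 50 counts per library. Of 100 changed by 1 on the log2 scale, 92 were recovered in CAL-29, 99 in 5637 and 86 in the interaction, with 0, 2 and 0 unchanged genes called. This recovery does not cover genes below that mean, such as THBS2 and SPARC in CAL-29 cells (means of 28.5 and 27.42 counts). The simulation also differed from the data in how many genes changed. For CAL-29, 14340 of its 14540 genes were unchanged, whereas 10194 of 14673 genes passed an adjusted p below 0.05 in the data. Recovery with that many changed genes was not tested.

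The members and the lists were chosen with earlier results of these data known. All members were named, and of each list at most 3 genes called higher and 3 lower per line, by largest fold change, with a mean of at least 50 counts. Some genes named for 1 line were also given for the other, where they need not meet this rule. Deviations of libraries with the same number in the titles were at most weakly correlated (between -0.0134 and 0.0819). For unlike numbers the correlations lay between -0.0781 and 0.0386. The highest in each line was that of replicates 1 (0.0819 in CAL-29 and 0.0541 in 5637 cells). Pairing was thus not shown, and the numbers were not taken to pair libraries. Gene models, 3′ UTRs of at least 50 bases and sites were read from GENCODE on GRCh37 and promoters from RefSeq (GRCh38.p14; 10 of 10 members matched) with Python 3.11.15, pandas 2.3.3 and matplotlib 3.10.9. Alternatives were other thresholds, scalings and filters, DESeq2 1.42.0, a replicate block, other transcript choices and each library left out. The protein motif search that was planned was not run.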

Additional observations from a re-analysis of the deposited data

Results flagged for a closer look

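The responses of TNC and FN1 to siKMT9α differed between the lines by the interaction test. The log2 response in CAL-29 cells minus that in 5637 cells was -3.70 for TNC, with a fall in CAL-29 cells and a rise in 5637 cells in 3 of 3 libraries each, and -1.32 for FN1, which fell in both lines. FN1 started 9.95-fold higher in CAL-29 cells. The transfection reagent, dose and culture medium cannot be told apart from the cell line in these differences.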

How the results depend on the processing

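The number of members called higher in CAL-29 cells, 1, was 2 at an adjusted p below 0.05 and between 0 and 2 when single libraries were left out, since SPP1 missed 1e-06 in 4 of these fits. Members called lower there were 5 in every fit that left out a library, and 6 at an adjusted p below 0.05. In 5637 cells the 3 called lower became 7 at an adjusted p below 0.05 and 1 (FBN1) where a log2 fold change of at least 1 was also asked, by which the 1 called higher became 0; with single libraries left out, 3 or 4 were lower. The 2 members whose response differed between the lines became 6 at an adjusted p below 0.05, 5 with no filter on low counts, 4 with DESeq2 and between 2 and 4 with single libraries left out. With the replicate block they became 4 (TNC, FN1, THBS1 at -0.62 and THBS3 at -0.95), and VCAN in 5637 cells also passed, but the numbers were not shown to pair the libraries. The direction of THBS2 and THBS3, which were not called in these comparisons, turned in some fits. With single libraries left out, THBS2 in CAL-29 cells lay between -0.52 and 0.1066, its difference between the lines between -0.238 and 0.385, and THBS3 in 5637 cells between -0.142 and 0.0916. With scaling by total counts the difference of THBS2 between the lines was 0.074. The cause was not tested. TNC and FN1 kept their direction and call in the alternatives run, apart from the fold requirement in 5637 cells. Scaling by total counts moved the median difference between the lines over all genes from 0.04 to 0.16 and the share of higher calls from 54.8% to 72.4%. Over all genes, calls in CAL-29 and 5637 cells went from 4402 and 5104 to 10194 and 10138 at an adjusted p below 0.05, to 1517 and 1061 with a log2 fold change of at least 1, and to 7863 and 9248 over every transcript. In the difference between the lines they went from 2421 to 7764 at an adjusted p below 0.05. In the shortest 3′ UTR, 2 members hold ACATTCA in place of 3. The planned search for RGD in the proteins was not run. Precision is limited by depth for THBS2 and SPARC in CAL-29 cells and for VCAN and SPP1.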

Other observations

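The FN1 transcripts gave a pattern that was noticed after the values were seen. RefSeq transcripts of FN1 differ in alternative exons and ends. The pattern concerns the counts by which the fullest one, NM_212482, exceeded NM_002026, NM_212474, NM_212476 and NM_212478. It did not hold for NM_054034, described below. As a percentage of NM_212482, this excess was higher with siKMT9α in both lines, although FN1 itself fell in both. Against NM_002026 this excess was between 0.834% and 0.865% in the siCtrl and between 1.44% and 1.61% in the siKMT9α libraries of CAL-29 cells. In 5637 cells the range was 1.29% to 1.41% with siCtrl and 2.73% to 2.90% with siKMT9α, and there the excess itself was 31.7 ± 1.62 CPM in siCtrl libraries against 47.5 ± 3.03 CPM (SD, n = 3) after knockdown. The other excesses in 5637 cells were 222.8 and 191.3 CPM against NM_212474, 111.7 and 111.9 CPM against NM_212476 and 66 and 73.3 CPM against NM_212478. In CAL-29 cells all 4 were lower in CPM with siKMT9α, from 209.6 to 105.5 CPM against NM_002026. Against NM_212476 the mean excess went from 3% to 4.59% in CAL-29 cells and from 4.70% to 6.63% in 5637 cells. Against NM_212478 it went from 1.91% to 2.61% and from 2.77% to 4.34%, and against NM_212474 from 6.44% to 8.07% and from 9.37% to 11.3%. The siCtrl and siKMT9α libraries did not overlap for any of these 4 transcripts in either line. The 4 differences share reads, and an exact permutation test of 3 against 3 libraries cannot go below 0.1. Which exons or ends hold the reads was not resolved.

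The share of NM_212482 counts found in NM_054034, the FN1 transcript with the fewest counts, was 22.7% with siCtrl and 24.1% with siKMT9α in CAL-29 cells, with separate groups. In 5637 cells it was 21.4% and 20.4%, with overlapping groups.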
